A study of Trichoderma reesei with 9 samples.

Results

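The genes described here are the 100 most evenly expressed among the abundant genes of *Trichoderma reesei* RUT-C30 under growth on glucose or on necromass of low or high melanin content. They are called the stable genes. A gene qualified as abundant when its CPM (the count divided by the library's total count and multiplied by 1000000) reached at least 100 in each of the 9 libraries. Of the 9849 genes in the count table, 785 did so. These were ordered by the coefficient of variation (CV), the standard deviation (SD) of the 9 CPM values divided by their mean, and the 100 with the lowest CV were taken. All 9 libraries entered this choice, so every level and spread of the stable genes given below describes the choice and is not a test of it. RUT-C30 carries a truncated *cre1* gene, the carbon catabolite repressor, and all 3 groups share that allele. The cultures were grown for 7 days in Highley's medium with 1% (w/v) glucose, 0.45% (w/v) low melanin necromass or 0.45% (w/v) high melanin necromass of *Hyaloscypha bicolor*, with 3 replicate cultures on each substrate. The biomass had first been grown in malt extract broth and then acclimated in medium without carbon, each necromass type came from 1 bulk harvest, and mRNA was taken by poly(A) capture. A single strain was sampled at a single time, so nothing is shown for other strains, times or media.

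Expression studies of single genes need reference genes, whose transcripts keep the same share of the mRNA while the conditions change, since the level of each other gene is read against them. In fungi, genes for actin, tubulin, translation factors and glyceraldehyde-3-phosphate dehydrogenase are the usual choice. Whether such a gene is even has to be measured for each set of conditions. A move from sugar to a polymeric substrate is a demanding case for *T. reesei*, which on inducing substrates makes large amounts of mRNA for secreted enzymes. Since sequencing measures shares, a rise of some transcripts lowers the share of the others. The count table lists genes by locus tag only. None of the 100 stable genes was found in the study's annotated list of changed genes, where 113 of the 785 abundant genes were. The study's cutoff for that list was 2 log2 units in either direction. Between its lowest and its highest library a stable gene differed at most 1.63-fold, so its absence there was set by the choice. In the RefSeq gene table used here, which describes strain QM6a, 0 locus tags of the count table were found. The stable genes are therefore named by locus tag, without a gene name, a function or a sequence, and none of the usual reference genes could be looked up.

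Library totals ranged from 18074631 to 24635281 counts. Glucose replicate 1 stood apart from both other glucose libraries. The chi-square of the counts was 299 and 341 per gene against glucose replicates 2 and 3, while glucose replicates 2 and 3 gave 41.7 and the necromass pairs 11.5 to 53.1. All replicate pairs differed by far more than sampling noise, so each library was counted as a sample. The 10 most abundant genes of each library, which were not 1 fixed set, held 5.74% to 10.3% of the counts on glucose, 24.4% to 27.8% on low melanin necromass and 31.2% to 35.7% on high melanin necromass. The most abundant gene of the necromass libraries, M419DRAFT_125125, a GH7 gene in the study's annotation (GH7 is the family of cellobiohydrolase I, a cellulase), had 254, 221 and 152 CPM on glucose, within the range of the stable genes. In the necromass libraries it had 61606 to 104041 CPM. The 785 abundant genes as a whole held 50.6% to 54.6% of the counts on glucose and 42.8% to 44.9% on necromass. The stable genes held between 2.01% and 2.12% of the counts in each of the 9 libraries.

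The CV of the stable genes ran from 2.59% to 12.7%, with a median of 9.85%. Over all 785 abundant genes the median was 32.5% and the highest CV was 167%. The edge of the choice is not a break in the data. The stable genes ranked 99 and 100, M419DRAFT_32988 and M419DRAFT_94039, had CVs of 12.6% and 12.7%, and the first genes left out, M419DRAFT_25564 and M419DRAFT_103606, both had 12.8%. Between its lowest and its highest library a stable gene differed 1.07-fold to 1.63-fold (median 1.34-fold). In 14 of the 100 this ratio was at most 1.25, and in 91 it was at most 1.5. Without glucose replicate 1 the median CV of these genes was 9.30%, and 69 of the 100 would have been chosen again.

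**Figure D1:**
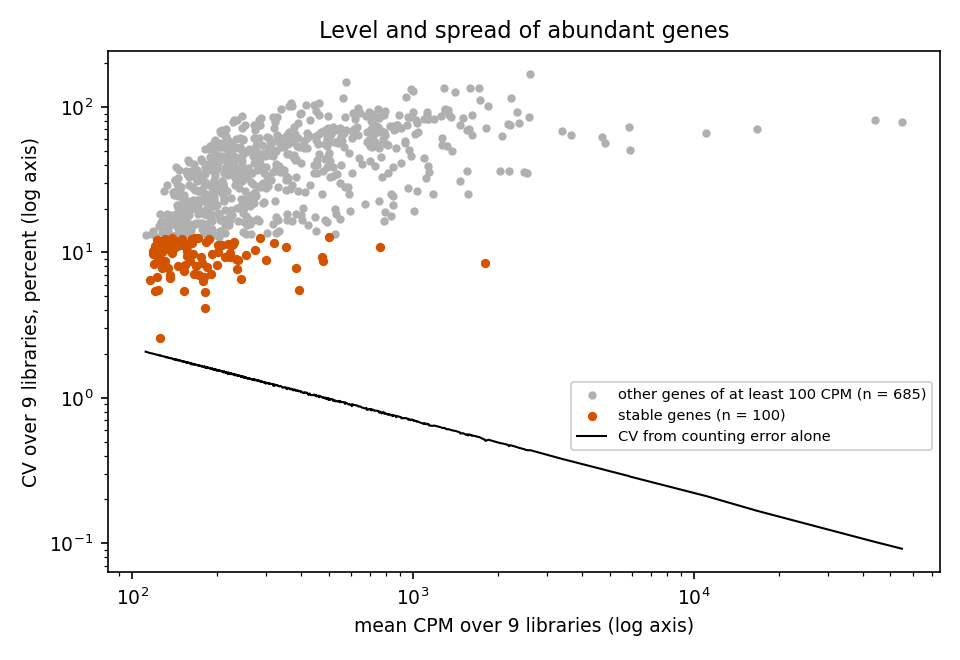
Each point is 1 of the 785 abundant genes, placed by its mean CPM over 9 libraries (x, log axis) and its CV over the 9 libraries in percent (y, log axis). The 100 stable genes are orange, the other 685 grey, and the black line is the CV that counting error alone would give. The stable genes lie mostly at the left, and 1 of them, with a CV of 2.59%, comes close to the line.

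Most of the stable genes were moderately abundant. Mean CPM ran from 116 to 1799 with a median of 160.4, and the middle part of the list, from the lower to the upper quartile, covered 134 to 211 CPM. CPM is not divided by transcript length, and no lengths were used here, so the order of these values is an order of counts and not of transcripts per cell. CPM is also a share of the library, and a change in the total mRNA of a culture cannot be seen in it. With a mean from 100 to under 200 CPM there were 272 abundant genes, and 71 of them (26.1%) were stable genes. From 200 to under 500 CPM it was 26 of 326 (7.98%), from 500 to under 1000 CPM 2 of 119 (1.68%), and at 1000 CPM or more 1 of 68 (1.47%). The median CV of the abundant genes was 17.6%, 37.7%, 59.1% and 73.9% in these bands in turn. The stable genes were thus mostly found near the lower limit of the choice, which follows in part from the rule. A gene with a mean near 100 CPM could reach 100 CPM in each library only if its spread was small. With no minimum CPM, 77 of the 100 genes of lowest CV had a mean under 100 CPM.

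Among the stable genes, M419DRAFT_68158 had the lowest CV, 2.59%. It stood at 130.2, 122 and 123 CPM on glucose, at 129, 122 and 127 CPM on low melanin necromass and at 127, 129 and 123 CPM on high melanin necromass. On column totals the 3 groups overlapped fully, and the means were 125 ± 4.42 (SD, n = 3), 126 ± 3.53 and 126 ± 2.98 CPM. This evenness depended in part on the scaling. In the edgeR fit with TMM factors described below, high melanin necromass stood higher. Its log2 fold change was 0.13 (SE 0.08) against glucose and 0.12 (SE 0.08) against low melanin necromass. With 2325 to 3127 counts per library, counting error alone would give a CV of 1.95%, so the measured spread was 1.33 times the smallest that this depth allows. No other stable gene came within 2 times of its counting error, and the median was 5.92 times. Such a limit covers counting error only.

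M419DRAFT_24423 followed with a CV of 4.13%. It had 179, 190.2 and 185 CPM on glucose, 188, 172 and 167 CPM on low melanin necromass and 184, 185 and 179.5 CPM on high melanin necromass. Low melanin replicates 2 and 3 were its lowest libraries, and the groups overlapped. M419DRAFT_97168 (CV 5.33%) lay at a like level, with 182, 198 and 182 CPM on glucose, 179, 182 and 160.3 CPM on low melanin necromass and 183, 187 and 181 CPM on high melanin necromass. A single library on each side, glucose replicate 2 and low melanin replicate 3, made most of its spread.

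Ranked 4 to 6 were 3 genes whose widest values were on glucose. M419DRAFT_83973 (CV 5.42%) had 168, 165 and 144 CPM there, and 149 to 154 CPM on low and 144 to 154 CPM on high melanin necromass. M419DRAFT_89392 (CV 5.43%) had 135, 123 and 112 CPM on glucose, and all its 6 necromass values lay between 116 and 122 CPM. M419DRAFT_24714 (CV 5.47%) had 138, 118 and 121 CPM on glucose against 119 to 131 CPM on low and 119 to 125 CPM on high melanin necromass. In all 3 genes glucose replicate 1 was the highest of the 9 libraries.

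M419DRAFT_94958 (CV 5.53%) was the only gene among the 10 lowest CVs that was also among the 10 most abundant stable genes. It had 400.04, 399 and 375 CPM on glucose, 421, 402 and 418 CPM on low melanin necromass and 361, 383 and 366 CPM on high melanin necromass. The groups of low and high melanin necromass did not overlap for this gene, with means of 414 ± 10.4 and 369.8 ± 11.6 CPM, while glucose lay between them at 392 ± 14.0 CPM. The log2 ratio of high to low melanin necromass was −0.16 on these column totals and −0.049 (SE 0.10) in the edgeR fit with TMM factors described below. Of the others, M419DRAFT_107441 (CV 6.33%) ran from 162 to 197 CPM, M419DRAFT_9405 (CV 6.41%) from 105 to 129.8 CPM and M419DRAFT_26597 (CV 6.54%) from 221 to 273 CPM. The geometric mean of the 10 genes together was 163.6 to 177.6 CPM over the 9 libraries, a CV of 2.72%. That of all 100 stable genes had a CV of 2.39%. The further genes had higher CVs of their own, so these values do not show what the number of genes alone does.

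**Figure D2:**
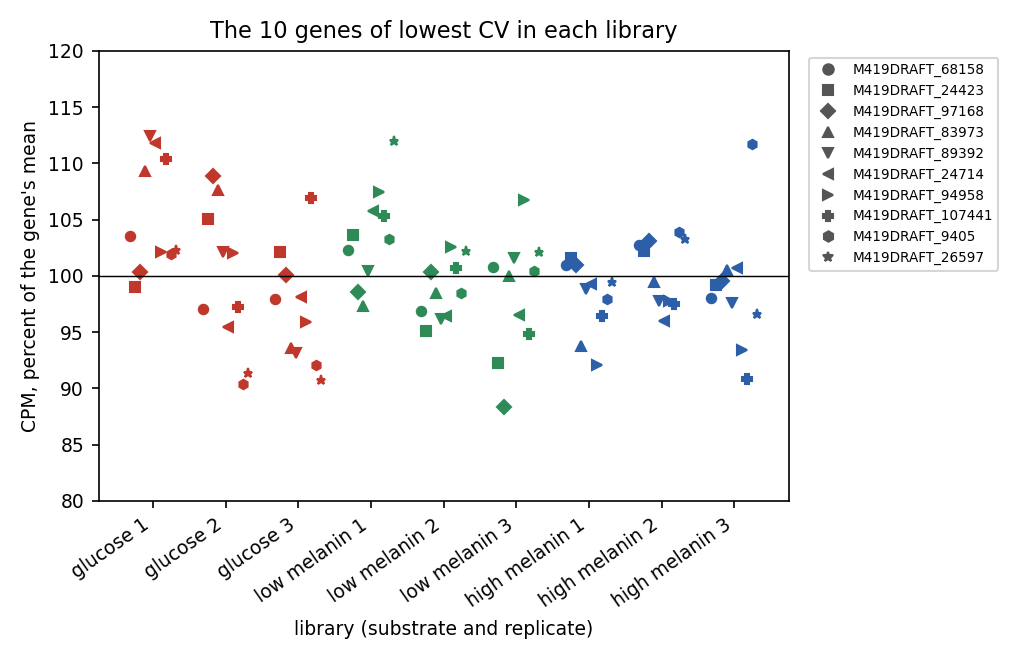
CPM of the 10 stable genes of lowest CV in each library, as a percent of the gene's own mean over the 9 libraries (y), by substrate and replicate (x). Each symbol is a gene, and red, green and blue stand for glucose, low and high melanin necromass. M419DRAFT_68158 stays closest to 100, and several genes stand above it in glucose replicate 1.

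The most abundant stable gene was M419DRAFT_124452, with a CV of 8.46% at a mean of 1799 CPM. It had 1709, 1589 and 2065 CPM on glucose, 1734, 1938 and 1621 CPM on low melanin necromass and 1854, 1858 and 1824 CPM on high melanin necromass. Its values on high melanin necromass were within 0.987% (CV) of each other, while those on glucose spread by 13.8% and those on low melanin necromass by 9.11%. Only 5.62% of its sum of squares lay between the substrates. It was the only stable gene at 1000 CPM or more.

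M419DRAFT_141046 came next in abundance, at 760.2 CPM. It had 773, 957 and 802 CPM on glucose, 704, 706 and 773 CPM on low melanin necromass and 713, 686 and 729 CPM on high melanin necromass. All 3 values on glucose were above those on high melanin necromass. For M419DRAFT_94039, at 501 CPM, the order was the opposite: 473, 369 and 474 CPM on glucose lay below 497 to 516 CPM on low and 532 to 603 CPM on high melanin necromass, and the 3 groups did not overlap. M419DRAFT_140356, at 479 CPM, had 425 to 535 CPM on glucose against 425 to 523 CPM on low and 452 to 515 CPM on high melanin necromass, and its groups overlapped. The remaining genes among the 10 most abundant, M419DRAFT_98699, M419DRAFT_139797, M419DRAFT_105185, M419DRAFT_107433 and M419DRAFT_123417, had means from 299 to 476 CPM and CVs from 7.75% to 11.6%.

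The spread within a substrate was widest on glucose. The median CV of the stable genes over 3 replicates was 9.67% on glucose, against 4.80% on low and 4.02% on high melanin necromass, and 85 of the 100 genes had their widest replicate spread on glucose. The same order held over all 785 abundant genes, with medians of 14.4%, 7.12% and 5.47%. The highest of a stable gene's 9 values was in a glucose library for 55 genes, and the lowest was in one for 48. Over the stable genes, the replicate spread on glucose was not that of replicate 1 alone. Glucose replicates 2 and 3 were apart by a median of 14.0% over the stable genes, against 11.5% and 12.8% for the pairs with replicate 1, whereas no pair of necromass libraries exceeded 5.44%. Over all abundant genes the glucose pairs with replicate 1 were the wider ones, at 20.1% and 24.5% against 13.4%. Low melanin replicates 2 and 3 were nearly as far apart there, at 12.4%, and the other necromass pairs were at 6.16% to 9.38%. M419DRAFT_83538 shows the wide spread on glucose in 1 gene. It had 174, 129 and 111 CPM on glucose, a replicate CV of 23.4%, but 132 to 145 CPM on low and 131 to 139.9 CPM on high melanin necromass, and 0.528% of its sum of squares lay between substrates.

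**Figure D3:**
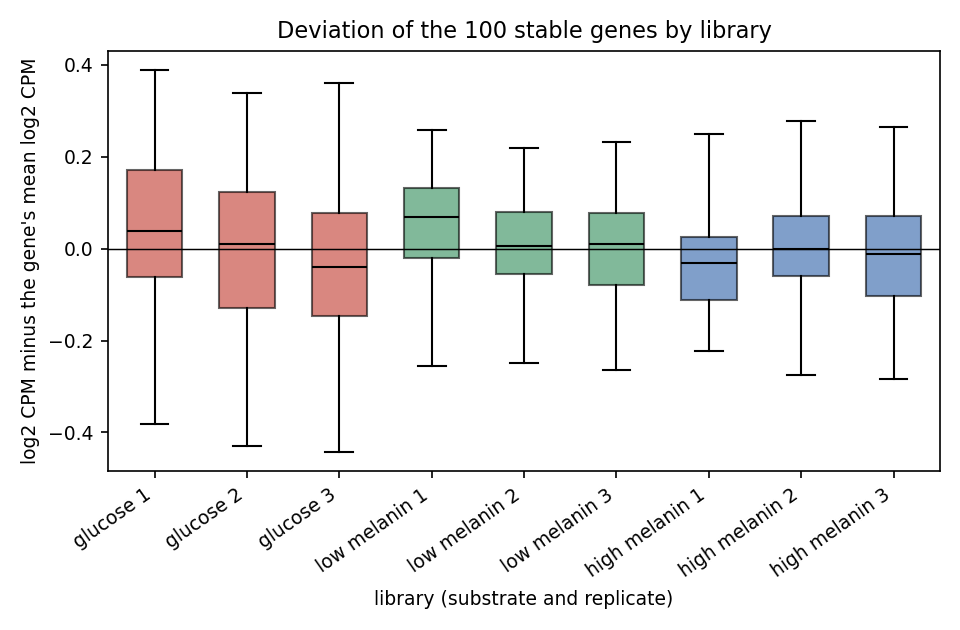
Log2 CPM of each of the 100 stable genes minus the gene's mean log2 CPM (y) in each library (x). The box spans the quartiles, the line is the median and the whiskers reach the lowest and highest gene. Medians lie between −0.04 and 0.07, and the boxes of the 3 glucose libraries are the widest.

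Between the substrates, the highest and the lowest of a stable gene's 3 means differed 1.01-fold to 1.30-fold, with a median of 1.16-fold. The CV of the 3 means had a median of 8.02%, which is larger than the replicate CV on either necromass and smaller than that on glucose. The median share of the sum of squares between substrates was 53.1%, against 87.6% over all abundant genes. With no difference between substrates 25% would lie between them on average, since they hold 2 of the 8 degrees of freedom. That is an average and not a median. The 53.1% was not tested against it, since the rule used these values. At one end of the list were M419DRAFT_83538, M419DRAFT_140356 and M419DRAFT_68158, with 0.528%, 1.89% and 3.46% of the sum of squares between substrates. At the other end were M419DRAFT_95915, M419DRAFT_95195 and M419DRAFT_106407, with 92.9%, 92.3% and 91.8%.

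M419DRAFT_95915 had 164, 158 and 159 CPM on glucose, 135, 135 and 136 CPM on low melanin necromass and 129.98, 126 and 114 CPM on high melanin necromass. Its groups followed each other without overlap. M419DRAFT_106407 had 166, 144 and 157 CPM on glucose, 193, 201 and 199 CPM on low melanin necromass and 195, 201 and 196 CPM on high melanin necromass, so it stood higher on both necromass types, which overlapped each other. M419DRAFT_95195 was lowest on low melanin necromass, at 138 to 143 CPM, with 151 to 156 CPM on high melanin necromass and 162 to 172 CPM on glucose. On column totals these 3 genes separated glucose from both necromass types in every replicate. For M419DRAFT_95195 the difference between high melanin necromass and glucose depended on the scaling, since its log2 ratio was −0.11 on column totals and −0.00085 (SE 0.10) in the fit with TMM factors described below.

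The order of the 3 means varied within the list. Glucose was highest for 40 stable genes, low melanin necromass for 39 and high melanin necromass for 21. Over all 785 abundant genes glucose was highest for 69.2%. On column totals the median log2 ratio of means of the 785 genes was −0.48 for low melanin necromass against glucose and −0.67 for high melanin necromass against glucose, and for the stable genes it was 0.03 and −0.03. Most abundant genes thus had a lower share of the counts on necromass than on glucose, while the stable genes, by the rule, had like shares. Each necromass library's own 10 most abundant genes held more of its counts, as given above, and their part in these ratios was not tested.

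Differences between the substrates were also fitted with edgeR's quasi-likelihood model over all 9 libraries, on libraries scaled with TMM factors. TMM, the trimmed mean of M values, sets the scale on the assumption that most genes do not differ, in place of the column totals of the rule. Against glucose most of the genes tested did pass the threshold, as given below, so the assumption is doubtful there. Both comparisons with glucose use the same 3 glucose libraries. On low melanin necromass against glucose, 23 of the 100 stable genes had an adjusted p under 0.05, where 74.4% of the 9312 genes tested did. Of these, 13 were higher and 10 lower on low melanin necromass (background 37.4% and 37%). The split was 16 and 2 without glucose replicate 2 (71.8% of all genes tested called) and 11 and 18 without glucose replicate 1 (78.4%). Under upper-quartile scaling it was 16 and 1 (73.9%). On high melanin necromass against glucose it was 20 genes, where the background was 75.7%, with 18 higher and 2 lower (background 38.3% and 37.4%). This split was 8 and 9 on library totals, 12 and 10 with the libraries scaled to the stable genes, and 28 and 1 with upper-quartile factors. In these fits 74.2%, 74.9% and 75.6% of all genes tested were called. For high against low melanin necromass it was 1 gene, where the background was 9.19%, and this gene was higher on high melanin necromass (background 5.26% higher and 3.93% lower). The rule had used these libraries, so a low number follows from the choice and nothing is read from it. The number depended on single libraries. In the first comparison it was 9 without low melanin replicate 2 or 3 (68.6% and 69% of all genes tested). It was 7 without low melanin replicate 1 (68.6%) and 15 without high melanin replicate 2 (72.1%). In the second comparison it was 10 without high melanin replicate 3 (71.7%). With only the groups compared in the fit it was 6 in the first comparison (69.7%).

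All 100 stable genes had a log2 fold change within 0.5 in all 3 comparisons, where 29.8% and 28.4% of the genes tested did so against glucose and 80.04% between the necromass types. The rule took these genes for their like values in these libraries, so this too was set by the choice. The largest increase on low melanin necromass against glucose was that of M419DRAFT_106407, at 0.35 (SE 0.09), and the largest decrease that of M419DRAFT_32988, at −0.35 (SE 0.14). The latter had 302, 342 and 317 CPM on glucose and 247 to 256 CPM on low melanin necromass. On high melanin necromass it ran from 249.8 to 323 CPM, over a wider range than any other of its groups.

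On high melanin necromass against glucose, M419DRAFT_89586 had the largest increase, 0.49 (SE 0.12). It had 150.1, 172 and 158 CPM on glucose against 189 to 205 CPM on low and 202 to 214 CPM on high melanin necromass. M419DRAFT_95915, whose values are given above, had the largest decrease, −0.27 (SE 0.09). Both genes kept the same order of glucose and necromass in every library.

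Between the necromass types, M419DRAFT_116279 had the largest increase on high melanin necromass, 0.44 (SE 0.12), with 182 to 203 CPM on low and 235 to 259 CPM on high melanin necromass. M419DRAFT_94655 had the largest decrease, −0.22 (SE 0.10), with 233 to 255 CPM on low and 188 to 203 CPM on high melanin necromass. The groups of both genes did not overlap. The only stable gene past the threshold in this comparison was M419DRAFT_111204, named here after its values were seen. Its log2 fold change was 0.40 (SE 0.10). It had 186 to 201 CPM on low and 225 to 251 CPM on high melanin necromass, and on glucose 239 to 251 CPM. The number of stable genes past the threshold was 13 when only the necromass libraries entered the fit, where 31.7% of all genes tested were. Without glucose replicate 1 it was 8 genes (25.6% of all genes), without glucose replicate 2 or 3 it was 2 (10.6% and 11.7%), and without any 1 of the 6 necromass libraries it was 0 (2.77% to 8.43%). With all libraries, 11 stable genes had an unadjusted p under 0.05 in edgeR, where 25.7% of the genes tested did, and DESeq2 gave 3 genes at an adjusted p under 0.05 (15.4% of all genes). The standard errors of the fit, 0.08 to 0.17 over the stable genes in each comparison, take in the replicate spread on glucose also where glucose is not compared.

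The direction of the stable genes on high melanin necromass depended on the scaling. On column totals, 37 were higher and 63 lower on high than on low melanin necromass, and with TMM factors 70 were higher and 30 lower. On column totals the groups of low and high melanin necromass did not overlap for 40 stable genes (background 51.8%), 10 higher and 30 lower on high melanin necromass (background 16.4% and 35.3%). With TMM factors this turned to 38 higher and 6 lower (background 24.7% and 24.1%). Against glucose, high melanin necromass gave 41 higher and 59 lower on column totals, and 64 higher and 36 lower with TMM factors. RLE factors gave 61 and 39 here, and upper-quartile factors 76 and 24. Low melanin necromass against glucose gave 55 higher and 45 lower on column totals and with TMM factors, 49 and 51 with RLE factors, and 64 and 36 with upper-quartile factors. On column totals the groups of low melanin necromass and glucose did not overlap for 34 stable genes (background 74%), 17 in each direction (background 38% higher and 35.9% lower). With TMM factors it was 18 higher and 15 lower (background 39.1% and 36.6%). Those of high melanin necromass and glucose did not overlap for 29 (background 74.5%), 12 higher and 17 lower (background 35.3% and 39.3%), which turned to 23 higher and 7 lower with TMM factors (background 39.3% and 36.9%). These counts, too, were set by the choice. Between the necromass types RLE and upper-quartile factors gave 70 and 72 higher. The TMM factors themselves were 1.12 for glucose replicate 1 and 0.92 to 0.98 for high melanin necromass, so that the median deviation of the stable genes with TMM was −0.12 in glucose replicate 1 and 0.11 in high melanin replicate 3. On column totals all library medians lay between −0.04 and 0.07.

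**Figure D4:**
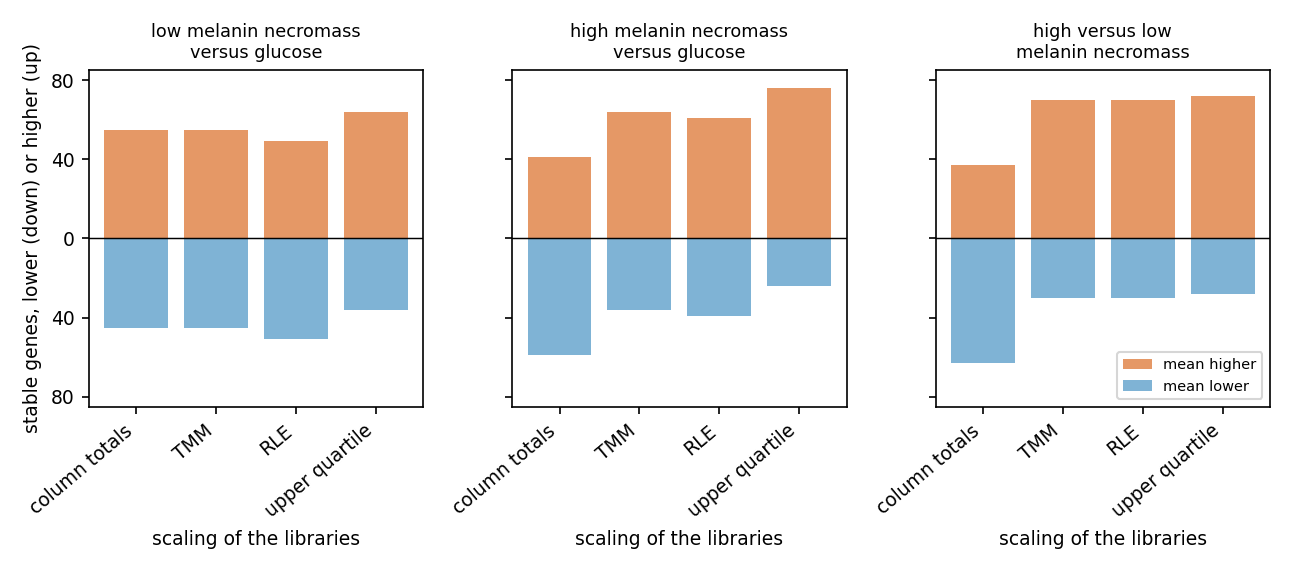
Number of the 100 stable genes whose mean was higher (orange, up) or lower (blue, down) in the first-named group of each comparison (panels), with the libraries scaled by column totals, TMM, RLE or upper-quartile factors (x). Between the necromass types 37 were higher on column totals and 70 to 72 with the other scalings.

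If the libraries were scaled to the median of the stable genes in place of TMM, the 3 median log2 fold changes of the stable genes were between −0.02 and 0.01, by construction. Over all 9312 genes the median moved from 0.01 to −0.02 for low melanin necromass against glucose, from 0.02 to −0.08 for high melanin necromass against glucose and from −0.01 to −0.08 between the necromass types. The split of the genes with an adjusted p under 0.05 moved with it in the last comparison (edgeR, Benjamini-Hochberg). It was 490 higher and 366 lower with TMM, and 370 higher and 431 lower with the stable genes as the reference. Against glucose the share of higher genes was 50.3% and 50.5% with TMM and 49.2% and 47.3% with the stable genes. This scaling was added after the data were seen. The rule took the stable genes for like CPM on column totals, where their library medians lay between −0.04 and 0.07. Scaling to them is thus close to column totals by the choice, and they are no independent reference.

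The evenness was also measured in libraries that took no part in the choice. The 100 genes were therefore chosen anew from 8 libraries, and their CPM in the ninth was set against the mean of the 8. In a left-out necromass library the rechosen genes were off by a median of 5.48% to 8.13%, and 95 to 100 of them were within 1.25-fold. Over all genes abundant in the other 8 libraries the median was 18.5% to 37.5%. In a left-out glucose library the rechosen genes were off by a median of 19.6%, 14.5% and 17.5% for replicates 1, 2 and 3, and 61, 73 and 73 of them were within 1.25-fold. The abundant genes were off there by 61.2%, 45.7% and 43.4%. In each of the 9 libraries the rechosen genes were nearer to their mean elsewhere than abundant genes were, and on glucose they were farther off than in any necromass library. The geometric mean of the 10 lowest in each choice was 0.96 to 1.05 times its mean elsewhere in the necromass libraries, and 1.21, 1.01 and 0.91 times in glucose replicates 1, 2 and 3.

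When a whole substrate was left out, the outcome depended on which. Chosen on glucose and high melanin necromass, the 100 genes were off by 8.34% to 13.2% (median over genes) in the low melanin libraries, and 82 to 91 were within 1.25-fold. Chosen on glucose and low melanin necromass, they were off by 10.2% to 12.8% on high melanin necromass, and 78 to 85 were within 1.25-fold. Chosen on the 2 necromass types alone, they were off by 36.2%, 40.4% and 32.7% in glucose replicates 1, 2 and 3, and 33, 32 and 40 of the 100 were within 1.25-fold. All genes abundant on necromass were off by 122.9%, 108% and 104% there, and 15.8%, 17.2% and 19.3% of them were within 1.25-fold. The most distant of these genes stood at an absolute log2 ratio of 3.05 in glucose replicate 1. Genes that were even across both necromass types thus mostly stood at another level on glucose. The choice without glucose shared 24 genes with the stable genes. The choices without low and without high melanin necromass shared 77 and 74. The numbers of abundant genes to choose from also differed. They were 1287 without glucose, 804 without low melanin necromass and 924 without high melanin necromass.

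**Figure D5:**
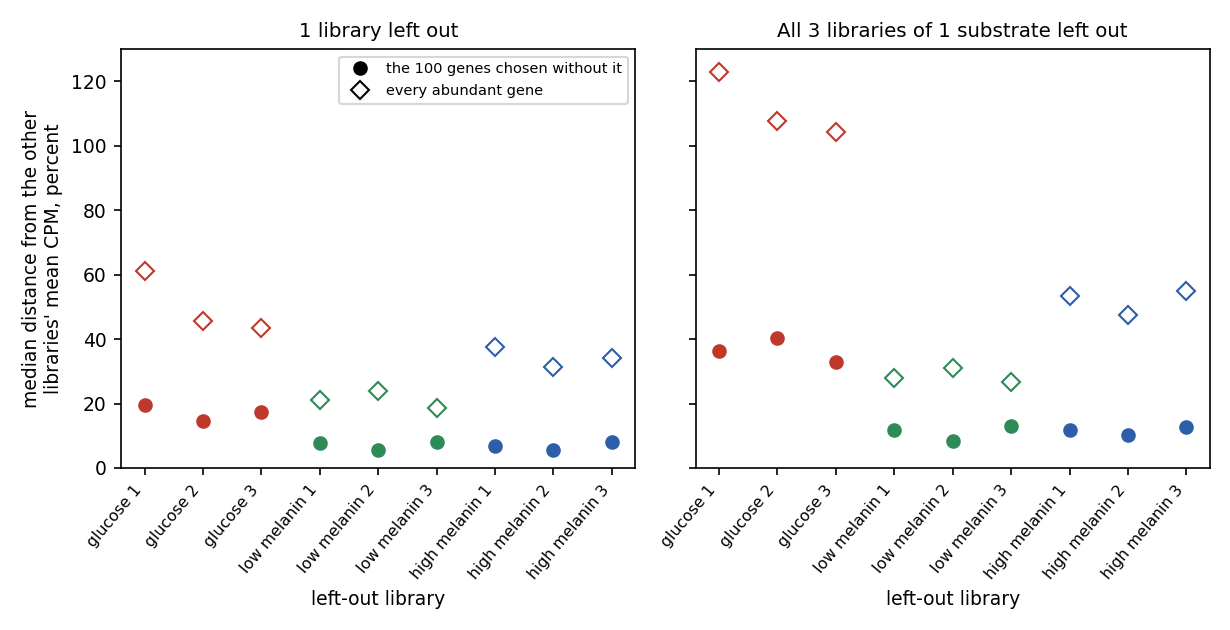
Median distance, in percent, of CPM in a left-out library from the mean of the libraries used for the choice (y), for the 100 genes chosen without it (filled circles) and for every gene abundant in those libraries (open diamonds), by left-out library (x). Left, 1 library was left out; right, all 3 of its substrate. Filled circles lie between 5.48 and 40.4 and are highest for glucose left out as a whole.

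Part of the list was chosen again with other libraries or scalings. Of the 100 stable genes, 56 were chosen again in all 9 choices without 1 library, and 16 also in the 3 choices without 1 substrate. With TMM, RLE and upper-quartile factors 72, 74 and 66 were chosen again, and 62 under all 3. In each of these 15 choices 12 genes were found. They are named here after their values were seen: M419DRAFT_68158, M419DRAFT_83973, M419DRAFT_89392, M419DRAFT_24714, M419DRAFT_105261, M419DRAFT_77240, M419DRAFT_105436, M419DRAFT_130942, M419DRAFT_98096, M419DRAFT_105179, M419DRAFT_94132 and M419DRAFT_80626. Their mean levels ran from 119 to 237 CPM and their CVs from 2.59% to 9.87%. On column totals M419DRAFT_77240, M419DRAFT_98096 and M419DRAFT_94132 were lower on both necromass types than on glucose, without overlap. M419DRAFT_105261 was so on high melanin necromass only. For the rest of the 12, glucose overlapped both necromass types. In the edgeR fit with TMM factors only M419DRAFT_94132 of the 12 passed the threshold. It was lower on low melanin necromass than on glucose, by −0.24 log2 units (SE 0.09). Of the 10 genes of lowest CV, 4 are among the 12, and the same number were chosen without the glucose libraries. Over all 22 alternative choices, which add other minimum levels and other measures of spread, 0 stable genes were chosen every time. The minimum of 200 CPM by itself shut out the 71 stable genes with a mean under 200 CPM.

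Beside the first 4 of these genes, M419DRAFT_105261 had 132, 139 and 122 CPM on glucose, 111 to 122 CPM on necromass and a CV of 6.79%. M419DRAFT_77240 (CV 7.03%) had 199.8, 175 and 181 CPM on glucose and 158 to 174 CPM on necromass. M419DRAFT_105436 (CV 7.06%) had 177, 167 and 136 CPM on glucose, and its 6 necromass values lay between 165 and 174 CPM. M419DRAFT_130942, the most abundant of the 12, had 205, 271 and 249 CPM on glucose and 226 to 245 CPM on necromass. M419DRAFT_98096 had 140, 129.8 and 124 CPM on glucose and 110 to 121 CPM on necromass. M419DRAFT_94132 had 144, 131 and 119 CPM on glucose and 105 to 118 CPM on necromass. In these genes too the glucose replicates set both ends of the range or the upper one.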

How the data were processed

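Poly(A) RNA of 9 *T. reesei* RUT-C30 cultures, 3 on each substrate, had been sequenced with paired-end Illumina reads. Per the submitters' processing notes, kallisto 0.48.0 and DESeq2 1.42.0 were used. The authors quantified trimmed reads with kallisto against the RUT-C30 transcriptome of Ensembl Fungi and deposited a table of estimated counts per gene, which held whole numbers and was used as it stood. Genes with close copies can share such counts. Library totals are given with the results, and 0 per-sample columns were left unused.

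CPM, CV and the choice of the 100 stable genes were computed with Python 3.11.15, pandas 2.3.3 and numpy 2.4.6. Substrates were compared with edgeR 4.0.16 in R 4.3.3 (glmQLFit and glmQLFTest, TMM factors, all 9 libraries in 1 fit, Benjamini-Hochberg adjustment) on the 9312 genes that reached 10 counts in 3 or more libraries. The fit was tested on simulated data. Alternatives were DESeq2 1.42.0, RLE and upper-quartile factors, column totals, no filter, only the groups compared, the replicate number as a block, other minimum levels and measures of spread, and each library or substrate left out. The genes named were the 10 of lowest CV, the 10 most abundant, those with the largest increase and decrease in each comparison, the 3 with the highest and the 3 with the lowest share of the sum of squares between substrates, and 4 at the edge of the choice. Other genes are named with a remark. The genes, lists and tests were chosen with earlier results of these data known. The labels number the replicates 1 to 3 in each substrate, and the methods describe separate flasks. Functional groups and sequence features of the stable genes were not analysed here.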

Additional observations from a re-analysis of the deposited data

How the results depend on the processing

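Of the 100 stable genes, 66 were chosen again with upper-quartile factors, 46 by the median absolute deviation over the median, 32 at a minimum of 50 CPM, 17 at 200 CPM, 17 with no minimum, 24 without the 3 glucose libraries and 5 by geNorm M, the mean SD of log2 ratios to all other abundant genes. At 200 CPM most stable genes could not be chosen, whatever their spread, since 71 of the 100 had a mean under 200 CPM. Leaving out 1 library gave 69 (glucose replicate 1) to 96, and a median CV of 8.92% to 10.2%. The geNorm choice, with a median CV of 22.6%, held genes that moved with the other abundant genes in place of genes even in CPM. The number of stable genes with an adjusted p under 0.05 in edgeR was 6 for low melanin necromass against glucose with only the groups compared (69.7% of all genes tested). It was 7 to 29 with 1 library left out (68.6% to 78.4%). For high melanin necromass against glucose it was 10 to 26 with 1 library left out (70.2% to 79.4%). Between the necromass types it was 3 with DESeq2 (15.4% of all genes tested), 2 with upper-quartile factors (9.18%) and 13 with only the groups compared (31.7%). It was 0 to 8 with 1 library left out (2.77% to 25.6%). On library totals, with no filter or scaled to the stable genes it was 0 (8.87%, 8.41% and 8.6%). The replicate number as a block gave 9, 18 and 0 genes in these comparisons (71.8%, 73.5% and 5.92% of all genes tested). Deviations of same-numbered libraries from their substrate means had correlations of −0.17 to 0.08, and not every library correlated best with its own number. The extremes, 0.231 and −0.228, were glucose replicate 2 with high melanin replicates 3 and 1. With 3 libraries on each substrate, these values cannot decide whether equal numbers stand for anything shared. Median log2 fold changes on low melanin necromass against glucose were 0.078 with upper-quartile factors and −0.032 to 0.036 with 1 library left out. On high melanin necromass against glucose they were 0.14 with upper-quartile factors, −0.034 on library totals, −0.016 scaled to the stable genes and 0.022 to 0.097 with 1 library left out. Between the necromass types they were −0.037 on library totals, 0.0055 scaled to the stable genes and 0.031 to 0.093 with 1 library left out. Scaling to the stable genes was chosen after seeing the data. In all, 96 values under an alternative kept within 1.5 times of a count or within a set limit, and 40 moved. For median log2 fold changes the limit was 0.032, the replicate spread of the library medians. For the median CV it was 3.06 percentage points, the SD between the substrates' median replicate CVs. That is a wide limit, and no median CV moved past it. The cause of these moves was not tested. Depth limits the CV of the stable genes to 0.515% to 2.03% at best.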
